A study of Arabidopsis thaliana with 32 samples.

Results

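The genes described here encode proteins of the cytosolic ribosome of Arabidopsis. They are 60 of the 37336 genes counted in each library, and they were chosen by a fixed list of gene identifiers. No measured value entered that rule, but the list was chosen with earlier results of these data known. The list holds 37 genes for proteins of the small subunit, 19 for the large subunit and 4 for the P stalk, in 31 families, of which 22 have at least 2 members on the list. The list is not the whole ribosome, and 153 further cytosolic ribosomal protein genes were kept apart for comparison. The reference annotation names all 60 as ribosomal proteins, and they lie on all 5 nuclear chromosomes, with 11, 9, 17, 8 and 15 of them on chromosomes 1 to 5.

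The libraries came from 3′RNA-seq of shoots and roots of seedlings of the Col-0 ecotype (WT) and of the q-lsu-KO line, a derivative of Col-0 in which the 4 LSU genes carry deletions. LSU proteins are small proteins whose genes respond to low sulfur. All seedlings grew for 10 days on medium with 1 mM sulfate, in short days, and then for 5 days on either the same medium, [nS], or a medium in which magnesium chloride took the place of magnesium sulfate, [dS]. They were harvested at an age of 15 days, each sample pooled tissue of at least 10 seedlings, and each of the 8 groups has 4 replicates, 32 libraries in all. The q-lsu-KO is a single line, and nothing in the labels says how the replicates of a group were grown relative to each other. The paper calls the libraries of a group biological replicates. The p-values therefore cover the spread among the sampled pools of seedlings and no wider spread.

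Library totals ran from 893225 to 2857129 counts. A sequencing pool combined both genotypes of a single tissue and sulfur condition, and there were 4 such pools. A difference between [nS] and [dS] and a difference between pools cannot be told apart in any result below. Genotypes were compared within a pool. LSU2 (AT5G24660) had 192 to 1202 counts in the WT libraries and 2 to 25 in the q-lsu-KO libraries. LSU1, LSU3 and LSU4 kept counts in q-lsu-KO, and since no source used here places the deletions within the genes, 3′ counts of these genes do not check the labels. The 5 shoot markers summed to 28920 to 43080 CPM (counts scaled to library size) in shoots and 53.9 to 227 in roots, and the 6 root markers summed to 6007 to 8786 in roots and 363.4 to 606.9 in shoots, as the tissue labels say. Of 8 S deficiency markers, 6 of 7 tested rose in WT shoots under [dS] and 7 of 8 tested rose in WT roots.

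A ribosome joins ribosomal RNA and ribosomal proteins in a small subunit, which reads the mRNA, and a large subunit, which makes the peptide bond. The P stalk is the flexible arm of the large subunit that recruits elongation factors. In Arabidopsis each ribosomal protein is encoded by a small family of paralogs, and the families are transcribed in a coordinated way, strongly in dividing and growing tissue. The kinase TOR promotes this expression and acts through S6 kinase on the small subunit protein RPS6. Ribosomes hold a large part of a cell's RNA and protein, so the pool of ribosomal protein transcripts is often taken as a measure of the capacity for translation.

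Promoters of plant ribosomal protein genes are known for a pair of short motifs, the telo-box and site II elements. In the 250 bases before the annotated gene start (RefSeq annotation of TAIR10.1), the telo-box AAACCCTA stood on either strand in 11 of the 60 promoters (18.3%), against 4.5% of 27443 protein-coding genes. TGGGCC stood in 36 promoters, against 13.7% of all, and TGGGCT in 30, against 12.3%, and at least 1 of both site II forms in 43 (71.7% against 19.2%). Neither motif was found in 14 promoters (23.3% against 77.7%). A match is a description of the letters and not of a bound site. 5 promoters are printed to show this range beside genes that the results below turn on, with telo-box and site II matches on either strand in capitals. RPS11C (AT5G23740) held 4 TGGGCC matches and a telo-box, RPP1B (AT4G00810) held both motifs, RPL4A (AT3G09630) held 4 site II matches, and its paralog RPL4D (AT5G02870) and RPL27aC (AT1G70600) held none.
RPS11C (chr5:8009437-8009686, minus strand): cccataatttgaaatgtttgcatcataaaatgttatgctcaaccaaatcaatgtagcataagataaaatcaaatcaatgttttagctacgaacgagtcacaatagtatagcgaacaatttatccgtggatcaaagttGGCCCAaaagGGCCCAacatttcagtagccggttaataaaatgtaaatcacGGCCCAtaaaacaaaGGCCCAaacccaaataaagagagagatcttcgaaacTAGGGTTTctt
RPP1B (chr4:347294-347543, minus strand): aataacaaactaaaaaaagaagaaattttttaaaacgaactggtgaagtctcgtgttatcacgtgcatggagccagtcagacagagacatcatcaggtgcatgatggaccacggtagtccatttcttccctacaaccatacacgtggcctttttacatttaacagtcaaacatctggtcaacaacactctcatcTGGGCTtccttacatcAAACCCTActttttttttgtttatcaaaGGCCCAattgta
RPL4A (chr3:2953443-2953692, plus strand): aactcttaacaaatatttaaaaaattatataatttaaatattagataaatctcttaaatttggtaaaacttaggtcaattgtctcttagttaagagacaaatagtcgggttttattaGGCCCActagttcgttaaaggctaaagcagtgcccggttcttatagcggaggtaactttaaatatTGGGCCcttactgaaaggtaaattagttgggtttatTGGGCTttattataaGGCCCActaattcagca
RPL4D (chr5:657425-657674, plus strand): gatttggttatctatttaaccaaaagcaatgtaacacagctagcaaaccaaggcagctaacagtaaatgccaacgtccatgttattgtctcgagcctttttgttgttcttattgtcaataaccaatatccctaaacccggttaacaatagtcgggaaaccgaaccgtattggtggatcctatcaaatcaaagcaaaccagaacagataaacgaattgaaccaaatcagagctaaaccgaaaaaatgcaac
RPL27aC (chr1:26621780-26622029, minus strand): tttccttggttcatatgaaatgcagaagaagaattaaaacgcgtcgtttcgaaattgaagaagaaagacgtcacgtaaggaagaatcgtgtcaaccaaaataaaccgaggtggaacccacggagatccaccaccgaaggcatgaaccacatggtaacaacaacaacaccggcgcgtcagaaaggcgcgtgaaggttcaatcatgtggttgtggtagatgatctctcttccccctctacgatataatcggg

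The abundance of the 60 genes differed widely. 3′RNA-seq counts the end of a transcript, so CPM values were not divided by transcript length, and CPM were scaled by TMM factors within each tissue. The highest mean CPM over the 16 libraries of a tissue belonged to the same 3 genes in shoots and in roots. RPS23B (AT5G02960), whose protein lies at the decoding centre, had a mean of 481.8 CPM in shoots and 1134 in roots. RPS9B (AT5G15200) followed with 465.6 and 1038, and RPS8A (AT5G20290) with 440.6 and 1034. The lowest were RPL10B (AT1G26910) with 8.99 and 30.4, RPS8B (AT5G59240) with 0.825 and 9.49, and RPS23A (AT3G09680) with 0.118 and 4.54. RPS23A and RPS8B were too low to be tested in shoots and RPS23A in roots, which left 58 and 59 members. In roots, RPS23A had 2 to 13 counts per library. In shoots it had 0 counts in 13 of 16 libraries, which in WT [nS] allows up to 0.42 CPM on library totals over the group, for a floor of 3 counts. Reads near the 3′ end can in principle be assigned to single paralogs. Of all 55-base words in the last 400 bases of the longest annotated transcript, 58 members shared none with another gene. RPL8A (AT2G18020) and RPL8C (AT4G36130) shared 0.9% of theirs with each other.

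The share of all counts that came from the 60 genes was lower under [dS] than under [nS] in every shoot library. In WT shoots [nS] it was 1.295%, 1.328%, 1.414% and 1.308%, and in WT shoots [dS] 0.966%, 1.092%, 0.990% and 0.941%. In q-lsu-KO shoots it was 1.186%, 1.247%, 1.293% and 1.292% under [nS] and 0.996%, 0.942%, 0.93% and 1.003% under [dS]. The highest [dS] library stood below the lowest [nS] library in both genotypes. The mean share was 1.34% ± 0.0536 (SD, n = 4) and 0.997% ± 0.0662 in WT, and 0.968% ± 0.0371 in q-lsu-KO [dS]. In these samples of whole organs, fewer cells of a type and less RNA per cell cannot be told apart. In roots it was higher and the sulfur conditions overlapped, with 2.67% ± 0.158 in WT [nS], 2.62% ± 0.0831 in WT [dS], 2.61% ± 0.245 in q-lsu-KO [nS] and 2.79% ± 0.0666 in q-lsu-KO [dS].

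**Figure D1:**
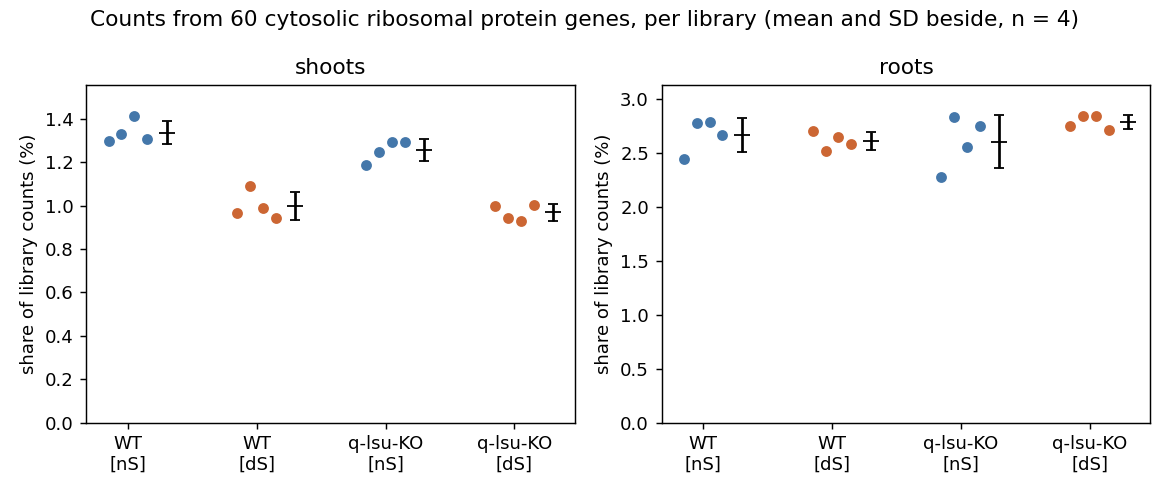
Share of library counts (%) from the 60 genes in shoots (left) and roots (right), each point a library and the bar the mean and SD of 4 libraries. All [dS] shoot libraries lie between 0.93% and 1.092%, below the [nS] libraries at 1.186% to 1.414%, while the root groups overlap.

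In WT shoots the ribosomal protein transcripts were lower under S deficiency as a group. 57 of the 58 tested members were below 0, against 47.7% of all genes. The median log2 fold change of [dS] against [nS] was -0.51, that is 29.8% lower, against 0.02 over all 14593 genes tested. By edgeR's quasi-likelihood test, 55 members were lower and 0 higher with a p under 0.05 after Benjamini-Hochberg adjustment, and 13 of them were also past a fold change of 1.5. The background for the first rule was 12.3% of all genes tested, or 33.8% of those at a log2 CPM of 6 or more, and for the second rule 5.24%. The libraries of both groups did not overlap, with [dS] lower, for 54 members, against 12.7% of all genes. The decrease was shared by the parts of the ribosome, with medians of -0.51 for 35 small subunit, -0.49 for 19 large subunit and -0.58 for 4 P stalk genes. It was spread narrowly around the fold threshold, which is 0.585 on the log2 scale, so the number called depends on where that threshold lies. With library totals in place of TMM factors the median was -0.44, the number called was 3, and without WT [dS] replicate 2 the number called was 21.

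Among the small subunit genes, RPS6A (AT4G31700), which encodes the target of S6 kinase, had 222.7, 234.3, 263.5 and 211.6 CPM in WT shoots [nS] and 155.6, 165, 146.8 and 124.5 under [dS]. All [dS] libraries lay below all [nS] libraries, and the log2 fold change was -0.65 ± 0.08 (SE, n = 4 against 4, edgeR adjusted p = 3.41e-08). Its paralog RPS6B (AT5G10360) had 209.5 to 235.9 CPM under [nS] and 159 to 192.6 under [dS], a log2 fold change of -0.38 ± 0.08 (adjusted p = 0.000198). RPS11C fell by 0.64 on the log2 scale (adjusted p = 1.11e-07), RPS10C (AT5G52650) by 0.63 (1.24e-07) and RPS5B (AT2G37270) by 0.61 (1.41e-06). RPS7C (AT5G16130) was the only other small subunit member past both thresholds, at -0.59 ± 0.07. RPSaA (AT1G72370), whose protein sits at the back of the small subunit, fell from 244.3 to 287.5 CPM to 167.5 to 185.5, a log2 fold change of -0.58 ± 0.08 that lay just short of the fold threshold. RPS5A (AT3G11940), known for its part in embryo growth, had -0.35 ± 0.06 (adjusted p = 4.35e-05). The smallest decreases past the adjusted p were those of RPS3B (AT3G53870) at -0.23 ± 0.07 and RPS18C (AT4G09800) at -0.24 ± 0.08. RPS3B, whose family lines the entry of the mRNA channel, had 232.5 to 241.6 CPM under [nS] and 184.5 to 213.1 under [dS].

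Among the large subunit genes, RPL27aC, which is known for its effect on leaf and ovule development, had the smallest p. It had 353.8, 338.2, 331.3 and 324.6 CPM under [nS] and 209.5, 237.9, 208.4 and 202.1 under [dS], without overlap, and a log2 fold change of -0.65 ± 0.07 (edgeR adjusted p = 1.06e-09). RPL8C, one of the genes for a protein near the peptidyl transferase centre, had the lowest fold change at -0.67 ± 0.10 (adjusted p = 2.23e-06), and RPL8A had -0.61 ± 0.07. RPL4D had 223.7, 233.1, 226.7 and 227.1 CPM under [nS] and 155.2, 157.9, 131.9 and 133.3 under [dS], a log2 fold change of -0.66 ± 0.08 (adjusted p = 1.16e-08), while RPL4A had -0.41 ± 0.09 (adjusted p = 0.000713). RPL5B (AT5G39740), of the family that binds 5S ribosomal RNA, had -0.64 ± 0.08 and RPL5A (AT3G25520) -0.49 ± 0.07. RPL7C (AT2G44120) had -0.61 ± 0.12. RPL24A (AT2G36620) had -0.58 ± 0.09, just short of the fold threshold, and RPL24B (AT3G53020), whose protein is known to aid reinitiation of translation, -0.34 ± 0.07. RPL23aA (AT2G39460) and RPL23aB (AT3G55280), of a family near the exit tunnel, had -0.49 ± 0.06 and -0.43 ± 0.09. RPL10A (AT1G14320) had -0.46 ± 0.07, and its scarce paralog RPL10B had -0.25 ± 0.23 and did not pass the test (adjusted p = 0.487).

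All 4 P stalk genes passed the adjusted p in WT shoots. RPP1C (AT5G47700), one of the genes for the acidic stalk protein P1, had 157.2, 174.4, 182.9 and 162.8 CPM under [nS] and 114.5, 113.5, 96.76 and 101.8 under [dS], a log2 fold change of -0.67 ± 0.08 (edgeR adjusted p = 3.57e-08). RPP0B (AT3G09200), which encodes the base of the stalk, had 260.5, 294.8, 334.8 and 278.6 CPM under [nS] and 188.7, 207.7, 185.7 and 193.2 under [dS], and -0.59 ± 0.08 (adjusted p = 5.16e-08). RPP1B had -0.56 ± 0.08 and RPP1A (AT1G01100) -0.49 ± 0.07. The 3 tested members that did not pass were RPL10B, RPS11B (AT4G30800) at -0.58 ± 0.26 and RPS9C (AT5G39850) at 0.24 ± 0.21, and all of these had fewer than 40 counts in each WT shoot library.

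**Figure D2:**
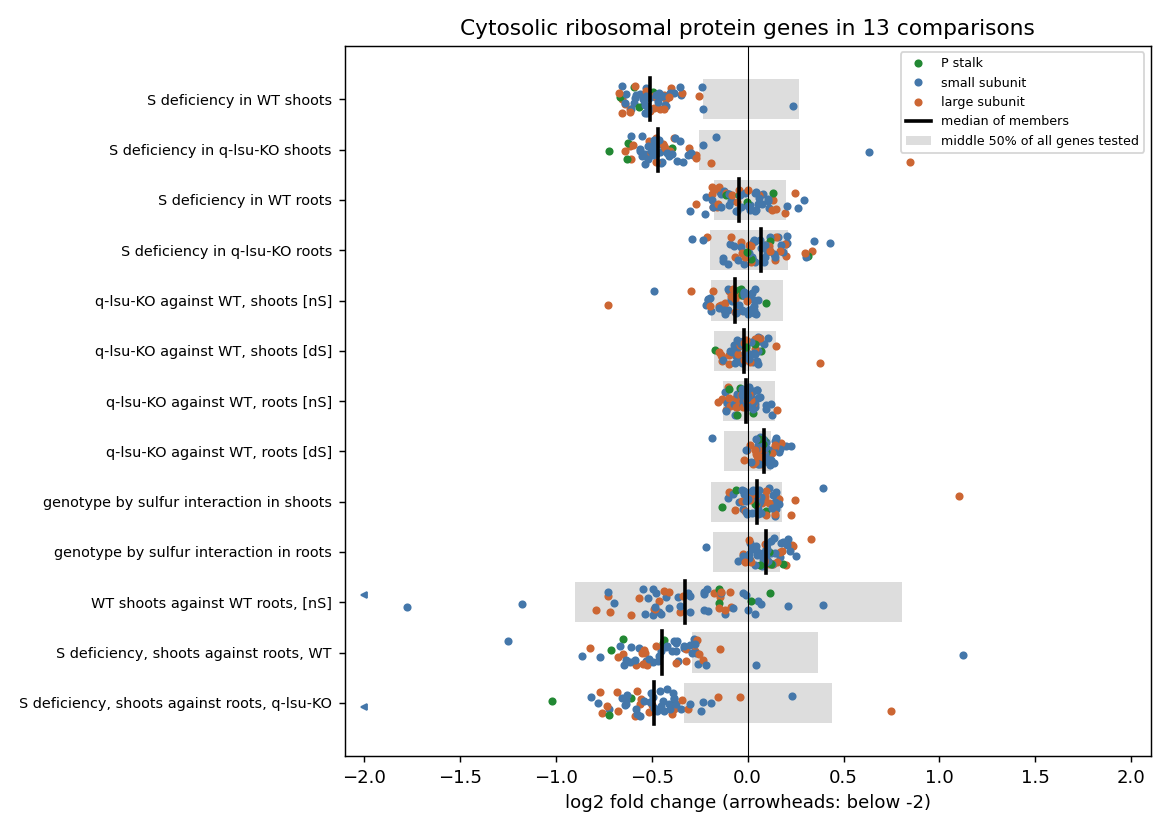
Log2 fold changes of the tested members in 13 comparisons, each point a gene coloured by its part of the ribosome, with the median of the members (black line) and the middle 50% of all genes tested (grey bar). Arrowheads mark 2 values below -2. In shoots the members sit at medians of -0.51 and -0.47 under S deficiency, and in the genotype comparisons their medians lie between -0.06 and 0.09.

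In q-lsu-KO shoots the same comparison gave a median of -0.47, that is 27.7% lower, against 0.0045 over all genes. 56 of 58 members were below 0, against 49.5% of all genes. At the adjusted p 53 were lower, against a background of 11.7% (34.6% of genes at a log2 CPM of 6 or more), and 8 were also past the fold against 5.44%. The groups did not overlap for 51 members, against 11.4% of all genes. P stalk genes had a median of -0.62, small subunit genes -0.46 and large subunit genes -0.44. Leaving out q-lsu-KO [dS] replicate 3, the smallest of the shoot libraries with 1096342 counts, left 5 members called, and library totals in place of TMM factors left 3.

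RPP0B led in q-lsu-KO shoots. It had 275.2, 278.7, 269.3 and 316.4 CPM under [nS] and 169.2, 170, 165.5 and 184.7 under [dS], well apart, and a log2 fold change of -0.72 ± 0.08 (edgeR adjusted p = 1.31e-09). RPL13B (AT3G49010), RPL27aC and RPS11C fell by 0.61 each on the log2 scale, RPL7C by 0.64, RPP1C by 0.63, RPP1B by 0.62 and RPL24A by 0.60. RPS6A had -0.49 ± 0.09, RPS6B -0.34 ± 0.08, RPL4D -0.51 ± 0.08, RPL4A -0.48 ± 0.10, RPSaA -0.53 ± 0.08, RPL5A -0.40 ± 0.08, RPL5B -0.49 ± 0.08, RPS5A -0.29 ± 0.07, RPS5B -0.46 ± 0.10, RPL10A -0.44 ± 0.07, RPL23aA -0.47 ± 0.07 and RPL24B -0.27 ± 0.08, all past the adjusted p and short of the fold. RPL23aB had -0.19 ± 0.09 (adjusted p = 0.146). 1 member was higher at both thresholds, against a background of 6.62%. It was RPL10B, with 5.382, 4.198, 7.214 and 7.573 CPM under [nS] and 9.548, 11.7, 10.91 and 12.12 under [dS], a log2 fold change of 0.85 ± 0.28 (adjusted p = 0.0216). These values rest on 5 to 30 counts per library, and DESeq2 gave an adjusted p of 0.0693.

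Of the members called lower, 5 were called in both genotypes, RPL27aC, RPL7C, RPP0B, RPP1C and RPS11C, which is 38.5% of the 13 in WT and 62.5% of the 8 in q-lsu-KO. At the adjusted p alone all 53 of q-lsu-KO were among the 55 of WT. Since nearly all of the 58 tested members passed in each genotype, most of this overlap was fixed by the counts alone. The overlaps are descriptions, given without a test or a share over all genes. In both genotypes 56 of 58 members were below 0, as were 5265 of all 14593 genes tested. The comparisons in both genotypes use separate libraries, but from the same pools and in the same model. A difference between pools would enter both, so they are not independent repeats. The difference between them was tested as the interaction of genotype and sulfur in shoots, where 0 of 58 members were called against a background of 0.425% in either direction, with 1 higher at an unadjusted p under 0.05, against 2.91%, and 0 by DESeq2. The median interaction was 0.05. RPL10B had the largest value, 1.1 ± 0.36 (adjusted p = 0.365), and the other members lay between -0.13 and 0.39.

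**Figure D3:**
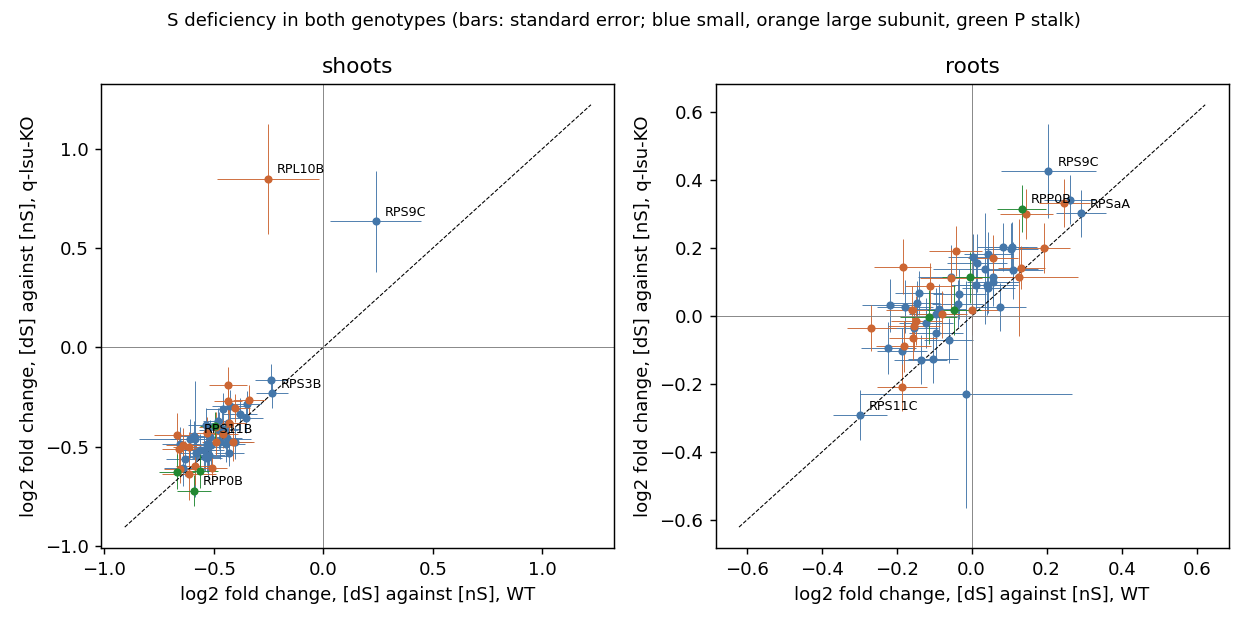
Log2 fold change of [dS] against [nS] in WT (x axis) and in q-lsu-KO (y axis), each point a member with its standard error, in shoots (left) and roots (right), with the line of equality dashed. In shoots 56 members are below 0 in both genotypes, and RPL10B (-0.25 and 0.85) and RPS9C (0.24 and 0.63) lie apart.

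Other lists of genes were counted in the same comparisons of shoots, where 12.3% of all genes in WT and 11.7% in q-lsu-KO were lower at the adjusted p. Of the 153 other cytosolic ribosomal protein genes, 143 were tested, with a median of -0.48 in WT (123 lower and 1 higher at the adjusted p, 34 called lower) and -0.43 in q-lsu-KO (117 and 0, 20 called lower). All 32 nuclear genes for plastid ribosomal proteins were lower at the adjusted p in both genotypes, with medians of -0.59 and -0.76, and 17 and 31 were called. Of these AT1G29070 had the smallest p, at -0.83 ± 0.07 and -0.99 ± 0.07. Of 32 tested ribosome biogenesis genes, 12 and 3 were lower at the adjusted p, with FIB2 (AT4G25630), a fibrillarin that modifies ribosomal RNA, at -0.68 ± 0.18 and -0.64 ± 0.21. The count in q-lsu-KO is a smaller share than that of all genes. Of 39 translation factor genes, 21 and 16 were lower and 1 higher in each, with RACK1B (AT1G48630), a scaffold protein of the small subunit, at -0.65 ± 0.13 and -0.62 ± 0.15. In the TOR and SnRK1 list of 12 genes, S6K2 (AT3G08720), a kinase that phosphorylates RPS6, rose by 1.23 ± 0.32 and 0.99 ± 0.23 on the log2 scale, while the list's medians were 0.20 in both. Of 12 tested cell division genes, 1 and 4 were lower at the adjusted p, in WT a smaller share than that of all genes. The summed level of the cell division list was lower under [dS] without overlap. It was 170.3 to 186.3 CPM in WT [nS] and 140.7 to 156.9 in WT [dS]. In q-lsu-KO it was 167.5 to 184.8 under [nS] and 132.5 to 153.2 under [dS]. The part of this in the members' decrease was not tested.

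The summed level of the 5 shoot markers moved with the members, from 41750 to 43080 CPM in WT [nS] to 29960 to 33450 in WT [dS], and from 39410 to 41410 to 28920 to 31660 in q-lsu-KO, with 4 of 5 lower at the adjusted p in each. The share of counts from the mitochondrial genome also moved, from 0.129% to 0.148% in WT [nS] to 0.189% to 0.275% in WT [dS], and from 0.140% to 0.145% to 0.264% to 0.293% in q-lsu-KO. The part of either in the lower share of ribosomal protein transcripts was not tested.

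Members with and without the promoter motifs had similar medians. In WT shoots the 9 tested members with a telo-box had a median log2 fold change of -0.51 and the 49 without had -0.51. The 42 with site II had -0.50 and the 16 without had -0.54. All 9 with a telo-box were lower at the adjusted p, as were 41 of the 42 with site II and 12 of the 14 with neither motif. RPL4D and RPL27aC, both printed above with no match, had log2 fold changes of -0.66 and -0.65, and RPS11C, with 4 site II matches and a telo-box, had -0.64. In q-lsu-KO shoots the medians were -0.48 with and -0.46 without a telo-box, and -0.46 with and -0.48 without site II. These medians are descriptions, given without a test.

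In roots the members' medians lay near 0. In WT roots the median of 59 tested members was -0.04 under S deficiency, against 0.01 over 15971 genes. Here 35 members were below 0 and 24 above, where 48.4% of all genes were below 0. None was called at both thresholds, against a background of 6.82% in either direction, with 7 higher and 16 lower at an unadjusted p under 0.05, where the background was 12.5% in each direction, and DESeq2 called 0. At the adjusted p alone 3 were higher and 6 lower, against 6.57% and 6.93% of all genes, or 13.4% and 15.5% of those at a log2 CPM of 6 or more. In q-lsu-KO roots the median was 0.07, against 0.01 over all genes, with 42 members above 0 and 17 below, where 50.8% of all genes were above 0. 0 were called against 6.15%, with 15 higher and 2 lower at an unadjusted p under 0.05, against 10.8% and 12.1%, and 0 called by DESeq2. At the adjusted p 7 were higher and 2 lower, against 5.03% and 6.61%, or 10.6% and 15.7% at a log2 CPM of 6 or more. Against genes at a log2 CPM of 6 or more, the 7 of 59 higher in q-lsu-KO are a share near the background and the other counts are smaller shares. The comparisons in both genotypes use separate libraries, but from the same pools and in the same model. Among the 145 other cytosolic ribosomal protein genes tested in roots, 2 were higher and 30 lower in WT, with a median of -0.11, and 11 were higher and 7 lower in q-lsu-KO, with a median of 0.0045.

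Some members passed the adjusted p in the same direction in roots of both genotypes. Their numbers are near or below the background of genes at a log2 CPM of 6 or more, and none was called at both thresholds. RPSaA, RPS10B (AT5G41520) and RPL3A (AT1G43170) were higher at the adjusted p in both, and RPS11C and RPL24B lower in both. RPSaA had 404.5, 415.2, 391.9 and 437.5 CPM in WT roots [nS] and 548.3, 496.2, 481.6 and 489 under [dS], without overlap, a log2 fold change of 0.29 ± 0.07 (edgeR adjusted p = 0.000896). In q-lsu-KO roots it had 400, 459.5, 413.6 and 447.5 under [nS] and 534, 529.5, 559.7 and 500 under [dS], and 0.30 ± 0.07 (adjusted p = 0.000983). RPL3A, which encodes a core protein of the peptidyl transferase region, had 0.25 ± 0.07 in WT roots and 0.33 ± 0.07 in q-lsu-KO roots. RPS10B had 0.26 ± 0.07 and 0.34 ± 0.07. Of 39 translation factor genes tested in roots, 9 were higher and 1 lower at the adjusted p in WT, and 11 higher and 1 lower in q-lsu-KO. Of all genes 6.57% and 5.03% were higher, or 13.4% and 10.6% of those at a log2 CPM of 6 or more. A link of these factors to the members was not tested. RPS11C had -0.30 ± 0.07 and -0.29 ± 0.07. RPL4A was higher in q-lsu-KO roots at 0.30 ± 0.07 (adjusted p = 0.00242) and had 0.15 ± 0.07 in WT (adjusted p = 0.178), and RPP0B had 0.32 ± 0.07 (adjusted p = 0.000497) and 0.13 ± 0.07 (adjusted p = 0.196). RPS13A (AT4G00100) and RPS9C were higher in q-lsu-KO, and RPL7B (AT2G01250), RPS18B (AT1G34030), RPS7B (AT3G02560) and RPS13 (AT3G60770) lower in WT. In WT roots RPS6A had -0.04 ± 0.07 and RPL4D 0.00 ± 0.07, and in WT shoots these were among the members that fell furthest. The number past the adjusted p in WT roots was 5 without WT [nS] replicate 2 and 5 without WT [dS] replicate 4.

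**Figure D4:**
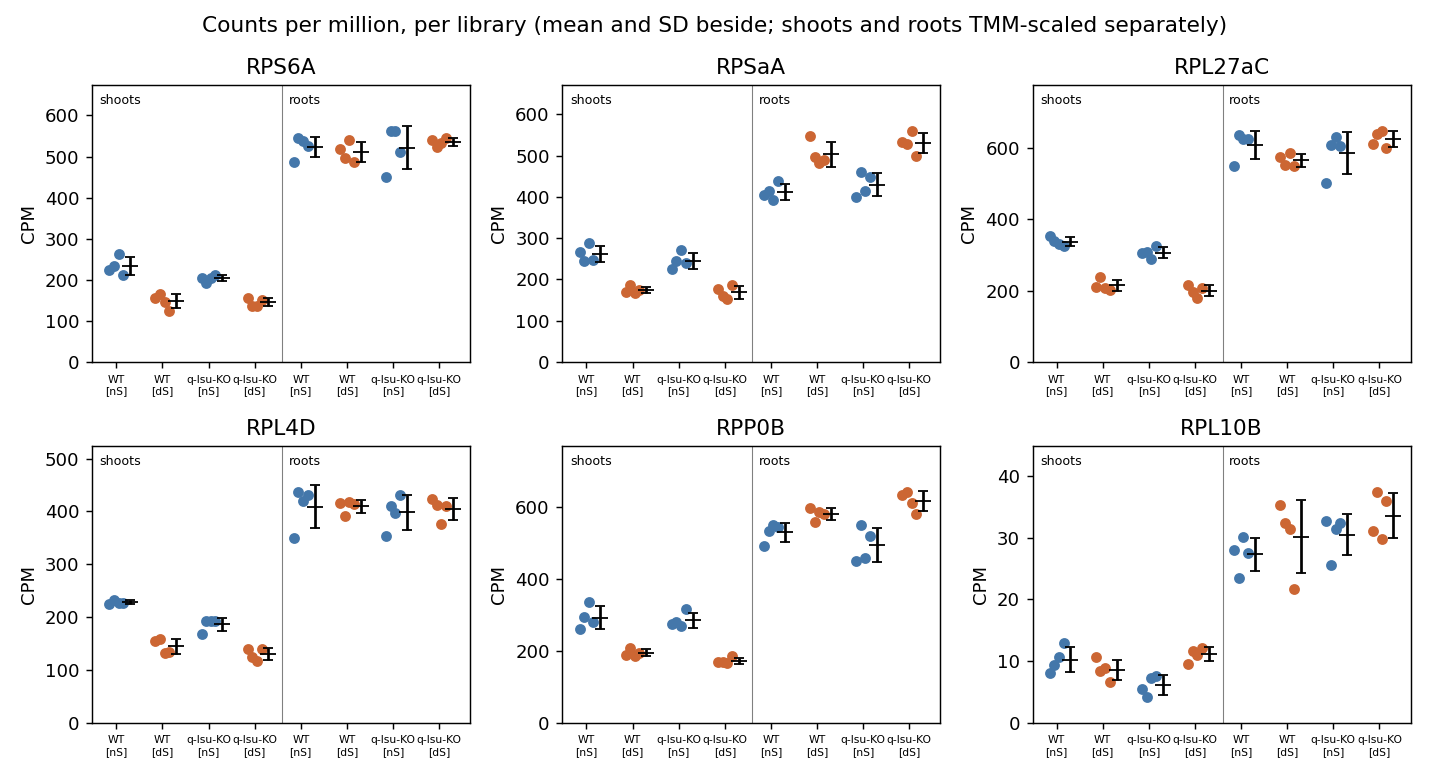
CPM of 6 members in each of 32 libraries, shoots left and roots right of the grey line in each panel, with the mean and SD of 4 libraries, [nS] in blue and [dS] in orange. RPS6A, RPSaA, RPL27aC, RPL4D and RPP0B are lower under [dS] in shoots of both genotypes, RPSaA is higher under [dS] in roots, and RPL10B is scarce throughout. CPM of the tissues were scaled separately.

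The difference between tissues was tested in a model of all 32 libraries. For WT, the sulfur response of shoots minus that of roots had a median of -0.44 over 60 members, and also over the 58 tested in both tissues, with 41 lower at the adjusted p against 3.72% of 17918 genes, and 12 called lower against 2.44%. For q-lsu-KO the median was -0.49 over the 60 and over the 58, with 48 lower against 3.79%, and 17 called against 2.73%. In neither genotype was a member called higher, and the members called or past the adjusted p were all among the 58. RPSaA had -0.86 ± 0.10 in WT (edgeR adjusted p = 8.12e-09) and -0.82 ± 0.11 in q-lsu-KO, and RPP0B had -0.71 ± 0.11 and -1.02 ± 0.11 (adjusted p = 1.37e-10 in q-lsu-KO). RPL5B had -0.82 ± 0.11 and -0.67 ± 0.11, RPS10B -0.77 ± 0.11 and -0.78 ± 0.11, and RPL3A -0.67 ± 0.10 and -0.59 ± 0.10. RPS6A had -0.61 ± 0.11 in WT and -0.51 ± 0.11 in q-lsu-KO, the second past the adjusted p and short of the fold. RPL24A, RPL4A and RPL7C were called in q-lsu-KO at -0.77 ± 0.12, -0.76 ± 0.12 and -0.73 ± 0.16. Each of these contrasts crosses all 4 pools of its 2 tissues and sulfur conditions.

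Shoots and roots of WT under [nS] were compared in the same model. RPS23A and RPS8B entered this model through their counts in roots and so had to differ, and they are left out of the next counts. The median of the other 58 members was -0.31 for shoots against roots, relative to -0.10 over all genes, with 37 lower and 2 higher at the adjusted p, against 37.5% and 31.7% of all genes, and 7 called lower against 31.3%. The size of this difference depends on the scaling. TMM factors ran from 0.736 to 0.820 in shoots and 1.245 to 1.323 in roots. With library totals alone the median over all genes moved by -0.73 to -0.83. That of all 60 members, RPS23A and RPS8B among them, moved to -1.06. Relative to all genes the median of the 60 was -0.23 with library totals and -0.23 with upper-quartile factors. RPL23aB had 160.3 ± 8.75 CPM (SD, n = 4) in shoots and 275.9 ± 21.2 in roots on the common scale, a log2 fold change of -0.79 ± 0.08 (edgeR adjusted p = 1.94e-14), RPL8C had -0.73 ± 0.09, RPS14C (AT3G52580) -0.70 ± 0.09, RPL7C -0.61 ± 0.11 and the scarcer RPS9C, RPL10B and RPS11B -1.17 ± 0.17, -0.72 ± 0.20 and -0.73 ± 0.20. RPS8B had 12 counts in 4 shoot libraries and 64 in 4 root libraries. RPS23A had 0 and 28 counts in these groups. With 3 counts over the group as the floor it was at least 6.22-fold lower in shoots on the TMM scale, and at least 10.4-fold lower on library totals. RPS10A (AT4G25740) and RPS3B were higher in shoots with TMM factors, at 0.40 ± 0.10 and 0.21 ± 0.07, and below 0 with library totals. RPSaA had 0.05 ± 0.07 with TMM factors and -0.68 with library totals.

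Between genotypes no member passed both thresholds in either tissue. The genotype comparisons use the same libraries as the sulfur comparisons above. In shoots [nS] the median of q-lsu-KO against WT was -0.06, with 45 of 58 members below 0, against 51.3% of all genes. None was called, against 4.82% of all genes in either direction, with 0 higher and 9 lower at an unadjusted p under 0.05, where 8.51% of all genes were lower, and DESeq2 called 0. RPL4D was lower at the adjusted p alone, where the background was 2.6%. It had 223.7 to 233.1 CPM in WT and 166.9, 193.1, 192.4 and 191.8 in q-lsu-KO, without overlap, and a log2 fold change of -0.29 ± 0.08 (edgeR adjusted p = 0.0174). In shoots [dS] the median was -0.02, 0 members were called against 4.17%, 1 was lower at an unadjusted p under 0.05, against 7.67%, and DESeq2 called 0. RPP0B had the smallest p there, at -0.17 ± 0.08 (adjusted p = 0.237), and RPL4D had -0.15 ± 0.08 (adjusted p = 0.357). In shoots the summed level of 7 touch and early stress genes was 102.8 to 729.6 CPM in WT and 1082 to 1954 in q-lsu-KO, and the part of this in the RPL4D value was not tested. S6K2 was higher in q-lsu-KO shoots, by 1.77 ± 0.33 under [nS] (edgeR adjusted p = 0.00027) and 1.53 ± 0.21 under [dS] (adjusted p = 3.12e-06). The other S6 kinase gene of the list, PK1 (AT3G08730), went the other way, at -0.64 ± 0.15 (adjusted p = 0.0035) and -0.61 ± 0.14 (adjusted p = 0.00426). These were the 2 genes of the 12 on the list that were called.

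In roots [nS] the median of q-lsu-KO against WT was -0.01, all members lay between -0.16 and 0.16, and 0 were called against 0.163%, with 0 at an unadjusted p under 0.05 and 0 by DESeq2. In roots [dS] the median was 0.09 and 55 of 59 members were above 0, against 50.6% of all genes, with values up to 0.22. Here 0 were called against 0.157%, 8 were higher at an unadjusted p under 0.05, against 3.55%, and DESeq2 called 0. RPS13A had the smallest p, at 0.16 ± 0.07 (edgeR adjusted p = 0.551). The interaction in roots had a median of 0.10 with 53 members above 0, against 49.1% of all genes. Here 0 were called against 0.025%, 7 were higher at an unadjusted p under 0.05, against 2.65%, and DESeq2 called 0. RPL8C led it at 0.33 ± 0.11 (adjusted p = 0.596).

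Within families the shares of the paralogs moved by a few percentage points. RPS3B held 39.8% ± 1.9 (SD, n = 4) of the CPM of the 3 RPS3 genes in WT shoots [nS] and 43.9% ± 0.7 under [dS], and 33.0% ± 0.3 and 32.6% ± 0.8 in WT roots. RPS6A held 51.0% ± 1.2 of the RPS6 pair in WT shoots [nS] and 46.3% ± 2.9 under [dS], and 47.7% ± 3.0 and 45.0% ± 1.2 in q-lsu-KO shoots. RPS6A was thus the larger of the pair in 1 of these 4 shoot groups. RPL24A held 43.2% ± 2.0 and 39.1% ± 1.4 of its pair in WT shoots and 36.3% ± 1.4 and 38.6% ± 1.1 in WT roots, so its share went down under [dS] in shoots and up in roots. RPL4A held 40.1% ± 2.1 and 44.3% ± 1.5 in WT shoots, and 44.0% ± 2.4 and 44.6% ± 0.8 in q-lsu-KO shoots. RPS18C, whose own decrease was small, rose from 46.5% ± 1.2 to 51.6% ± 2.1 of its family in WT shoots and from 48.4% ± 1.9 to 54.5% ± 0.6 in q-lsu-KO shoots. In roots, RPS13A took 45.0% ± 1.8 of its pair under [nS] and 49.7% ± 1.6 under [dS] in WT. The shares are descriptions and were not tested, and the values of a pair are bound to each other.

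**Figure D5:**
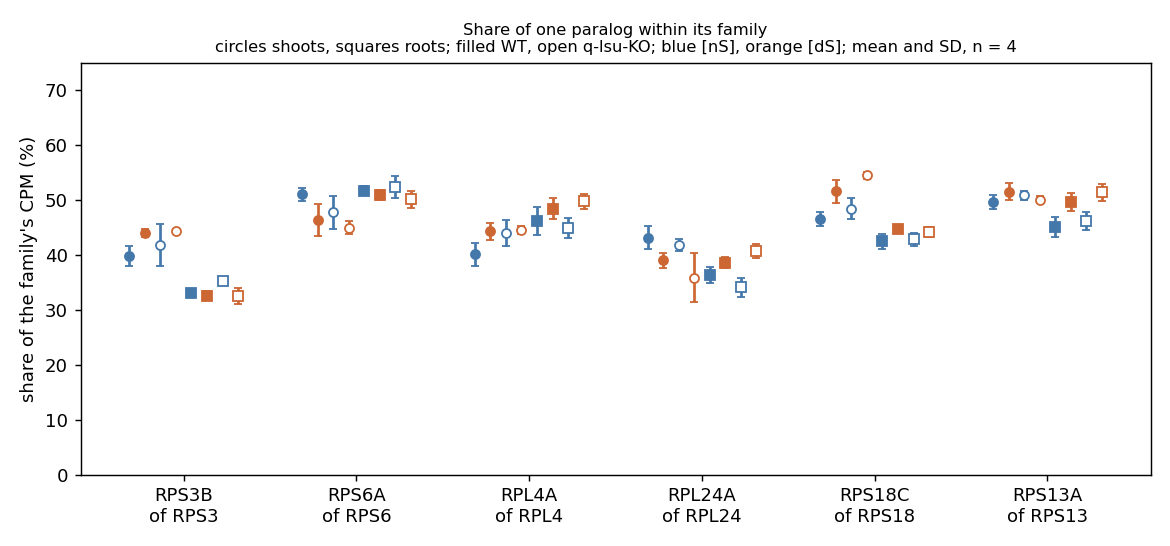
Share (%) of the CPM of its family held by one paralog in each group, mean and SD of 4 libraries, circles for shoots and squares for roots, filled for WT and open for q-lsu-KO, blue for [nS] and orange for [dS]. RPS3B and RPS18C take a larger share under [dS] in WT shoots, and RPL24A a smaller one.

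For RPS6A and RPL4A the 3 members with the most similar levels across libraries were looked up, and such best matches are high by selection. Over the 16 shoot libraries, which share the 2 sulfur conditions and their pools, log2 CPM of RPS6A was most like that of RPL10A (Pearson r = 0.971), RPS23B (0.967) and RPS5A (0.964), and RPL4A was most like RPS24A (AT3G04920, 0.929), RPL27aC (0.926) and RPP0B (0.922). Over the 16 root libraries RPS6A was most like RPL27aC (0.842), RPS10C (0.756) and RPS11B (0.753), and RPL4A most like RPP0B (0.913), RPSaA (0.854) and RPS3C (AT5G35530, 0.812). These values describe the libraries and carry no test.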

How the data were processed

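Counts of 3′RNA-seq tags per gene, which the authors deposited as 1 file of raw counts for each of 32 libraries, were used as they stood. The submitters' processing notes name STAR 2.7.8a, DESeq2 and TAIR10, while no source used here names the counting program or says whether molecular identifiers were collapsed. Genes were kept by filterByExpr (minimum count 10), scaled by TMM and tested two-sided with robust quasi-likelihood fits in edgeR 4.0.16 under R 4.3.3, using the 16 libraries and 4 group means of a tissue, or all 32 libraries for comparisons of tissues. Calls needed a Benjamini-Hochberg adjusted p under 0.05 over all genes tested and a fold change over 1.5. DESeq2 1.42.0, other scaling factors, other filters, a replicate block, subsets of groups and leaving out each library were run as alternatives. The scripts were tested on simulated data. The members and the lists were chosen with earlier results of these data known. Named members are the 6 largest called rises and falls of each comparison, or the 4 smallest p where fewer than 4 were called, 16 fixed members, and the 3 highest and lowest levels. Members named beyond these were chosen after their values were seen. Letters of gene symbols follow general Arabidopsis usage where RefSeq gives none. Promoter windows (250 bases before the gene start, not trimmed at neighbouring genes) came from the RefSeq genome TAIR10.1. Floors cover counting error only, while SD and SE values include the spread among libraries.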

Additional observations from a re-analysis of the deposited data

Results flagged for a closer look

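Values that stood far from the other 3 libraries of their group were looked for in 320 sets of 4 libraries, the members' share and the CPM of 39 named members in 8 groups, and 23 did so, where chance gives about 1 in 20. In WT roots [nS], replicate 1 was low for RPL27aC (550.7 CPM), RPS11B (26.3), RPS11C (305.1) and RPS13A (418.9), and replicate 4 high for RPS7B (306.2). In WT roots [dS], replicate 2 was low for RPL4D (391.9) and RPP1C (275.8) and replicate 4 for RPS8B (3.99). In q-lsu-KO roots, replicate 1 under [nS] was low for RPS11B (24.5), and under [dS] replicate 3 was high for RPL13B (634.6) and RPL5B (417.8) and replicate 4 for RPL3A (1034). In WT shoots [dS], replicate 2, which also had the highest share from the 60 genes in that group, was high for RPL5A (220.3) and RPL7B (258.8). In q-lsu-KO shoots [nS], replicate 3 was high for RPL24B (261.5) and low for RPL5A (241.7), and replicate 1 was low for RPL4D (166.9) and RPL7B (258.4). In q-lsu-KO shoots [dS], replicate 4 was high for RPS10A (82.5). In the remaining sets 1 count stood against 0 in the other 3 libraries, for RPS23A (0.384, 0.910 and 0.601 CPM) and RPS8B (0.390 CPM). Any count beside 0 in the other 3 libraries is flagged, so these sets cannot be set against the chance rate.

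The response to S deficiency differed between shoots and roots by a test of the difference itself. 12 members were called in WT, among them RPSaA (-0.86), RPL5B (-0.82), RPS10B (-0.77), RPP0B (-0.71), RPL3A (-0.67), RPS10C (-0.66), RPL4D (-0.65) and RPS6A (-0.61), and 17 in q-lsu-KO, among them RPP0B (-1.02), RPSaA (-0.82), RPS10B (-0.78), RPL24A (-0.77), RPL4A (-0.76), RPL7C (-0.73) and RPL5B (-0.67), all as log2 differences of shoots minus roots. Of all genes tested, 2.44% in WT and 2.73% in q-lsu-KO were called lower. Each of these contrasts crosses all pools.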

How the results depend on the processing

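Of 613 group values under alternatives, 587 stayed close to the reported ones. Calls by the adjusted p alone were 55 (WT shoots, sulfur), 54 (q-lsu-KO shoots), 9 and 9 (WT and q-lsu-KO roots), 1 (genotype, shoots [nS]), 41 (shoots against roots), and 41 and 48 (sulfur response between tissues, WT and q-lsu-KO). The shares of all genes, in that order up to the genotype, were 23.3%, 22.1%, 13.5%, 11.6% and 7.07%. For shoots against roots 37.5% of all genes were lower and 31.7% higher. Those 41 are thus a share near the background, and they include RPS23A and RPS8B. For the sulfur response between tissues 3.72% and 3.79% of all genes were lower. With library totals alone, 3 members were called in WT and 3 in q-lsu-KO shoots under S deficiency, with medians of -0.44 and -0.39, 15 passed the adjusted p in q-lsu-KO roots, and shoots against roots gave 58 calls, a median of -1.06 and RPSaA at -0.68. With upper-quartile factors these were 15 in q-lsu-KO roots, 26 calls and a median of -0.54 for shoots against roots, and a median of -0.075 for the genotypes in shoots [dS]. For shoots against roots the median over all genes was -0.83 with library totals and -0.31 with upper-quartile factors. The 58 and 26 calls are therefore not read as a result about the members. With only the groups compared, 14 members passed the adjusted p in WT roots. Leaving out 1 library in turn gave 10 to 21 calls in WT shoots (21 without WT [dS] replicate 2), 5 to 12 in q-lsu-KO shoots (5 without [dS] replicate 3), 5 to 12 past the adjusted p in WT roots and 6 to 12 in q-lsu-KO roots, medians of -0.039 to 0.05 for the genotypes in shoots [dS] and 0.02 to 0.12 for the interaction in shoots (0.05 and 0.12 without WT [dS] replicate 2). The number past the adjusted p under S deficiency, a count added after seeing the data, was 53 to 55 in WT shoots and 52 to 54 in q-lsu-KO shoots over its alternatives. Same-numbered root libraries did not deviate together (correlations of -0.08 to 0.075 over 24 pairs). In shoots the correlations ran from -0.1 to 0.252 over 24 pairs, 5 of them over 0.1. The summed touch and early stress genes were lowest in replicate 1 of every shoot group. From replicate 1 to replicate 4 this sum went from 102.8 to 517.4 CPM in WT [nS] and from 146.6 to 729.6 in WT [dS]. Same-numbered shoot libraries may thus share more than a number, and the labels do not say what. The replicate block gave 13 calls in WT shoots and 9 in q-lsu-KO shoots under S deficiency and 9, 12 and 17 in the tissue comparisons of 60 members, as without it, and 8 and 9 members past the adjusted p in WT and q-lsu-KO roots, and changed no other count of calls. Of 5042 values of single named members, 45 lost and 58 gained a call and 1 reversed. The causes were not tested. Counts of 5 to 30 per library limit RPL10B, and RPS23A and RPS8B were not detectable or near the floor in shoots.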
